A study of Homo sapiens with 4 samples.

Results

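The genes described here are 4 phosphatases of mitogen-activated protein (MAP) kinases, DUSP1, DUSP4, DUSP6 and DUSP8, and 2 Sprouty genes, SPRY2 and SPRY4. They are 6 of the 14884 genes measured, and each is read by a single probe set, the array's unit of measurement. The members were chosen by name, but with their difference between CSH71-treated and untreated cells already known from these same arrays. That difference is therefore described for the 6 genes without a test. The cells are Hut78, a long-established human cell line derived from cutaneous T-cell lymphoma and grown in medium with serum. In one group, 2 samples received CSH71 (250 nM, 30 h). The other 2 samples were untreated, and the labels mention no vehicle control. The series describes CSH71 as aimed at the lipid-binding domain of p38γ, itself a MAP kinase. Total RNA of each sample was read on 1 Affymetrix whole-transcript array, and the deposited values are linear intensities.

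MAP kinases (ERK, JNK and p38) are switched on by phosphorylation of a threonine and a tyrosine, and the dual-specificity phosphatases remove both phosphates. Many of these phosphatases are themselves transcribed in response to MAP kinase signalling and so close a negative feedback loop. They differ in place and preference: DUSP1 and DUSP4 sit in the nucleus, DUSP6 sits in the cytoplasm and acts on ERK, and DUSP8 acts mainly on the stress kinases JNK and p38. Sprouty proteins act further upstream, where they restrain signalling from receptor tyrosine kinases through RAS to ERK, and they are also induced by that pathway. An array reads RNA, not phosphatase activity, and it cannot tell more RNA per cell from more cells that hold the RNA.

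The upstream sequences of the members are shown first, so that the motifs near the start of each gene can be read beside its values. The sequences are from RefSeq (GRCh38.p14) and cover the 250 bases before a start site. They were matched by symbol for 5 of the 6 members, all but DUSP4. Windows of DUSP1 (chr5:172771196-172771445), DUSP6 (chr12:89352502-89352751) and SPRY2 (chr13:80341127-80341376, the outermost of 3 starts) are given whole, 5′ to 3′ on the minus strand. For DUSP8 the 30 bases around each of its full CRE matches are given (chr11:1572371-1572400 and chr11:1572327-1572356, minus strand), because its window lies inside the span RefSeq gives the gene. Capitals mark TGACG on either strand, the short form of the cAMP response element (CRE), whose full form is TGACGTCA, and GGAA on either strand, the core that ETS transcription factors bind.
DUSP1: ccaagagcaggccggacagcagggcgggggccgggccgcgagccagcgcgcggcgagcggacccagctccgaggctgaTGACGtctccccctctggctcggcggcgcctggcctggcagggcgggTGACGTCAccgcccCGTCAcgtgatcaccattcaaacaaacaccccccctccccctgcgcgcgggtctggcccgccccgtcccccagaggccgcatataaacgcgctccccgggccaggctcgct
DUSP8, outer match: ccgggctccgcTGACGTCAcctgcccccga
DUSP8, inner match: ttggctgcaggTGACGTCAggggctttttt
DUSP6: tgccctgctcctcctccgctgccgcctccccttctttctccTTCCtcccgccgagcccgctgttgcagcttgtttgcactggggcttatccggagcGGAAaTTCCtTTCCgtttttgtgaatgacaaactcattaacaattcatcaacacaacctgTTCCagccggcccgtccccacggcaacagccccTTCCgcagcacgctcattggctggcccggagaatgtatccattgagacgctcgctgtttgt
SPRY2: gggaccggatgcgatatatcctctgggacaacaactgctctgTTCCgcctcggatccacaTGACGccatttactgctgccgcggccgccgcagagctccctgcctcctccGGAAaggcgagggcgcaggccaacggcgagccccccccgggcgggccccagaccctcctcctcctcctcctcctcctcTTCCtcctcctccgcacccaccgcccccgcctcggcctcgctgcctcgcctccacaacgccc

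The full CRE is the site of CREB and ATF family factors. DUSP8 held it at 2 places, which begin 118 and 74 bases before the start; its 1 GGAA, not printed, begins 210 bases before it. DUSP1 held it at 1 place, which begins 125 bases before the start, with further short forms beginning 172 and 111 bases before it. Of 35114 windows of the same length, 1.65% held the full motif and 0.0541% held it at 2 or more places. The motif holds the pair CG, and these windows are rich in G and C: 76.8% of bases in DUSP8 and 74.4% in DUSP1, against a median of 58.0% over all windows. The DUSP1 window also held a TATA motif (TATAAA), found in 10.7% of windows.

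DUSP6 held neither form of the CRE, and GGAA stood at 6 places in its window, a number reached by 9.14% of all windows. At least 1 GGAA was present in 92.7% of windows, so its mere presence is common. The outermost SPRY2 window held GGAA at 3 places, 1 short CRE and 1 EGR motif (GCGGGGGCG or GCGTGGGCG, in 5.37% of windows), and the windows of the other SPRY2 starts held GGAA at 4 places each and no CRE. SPRY4 had 1 short CRE, a form present in 21.2% of windows, and GGAA at 2 places. The AP-1 motif TGANTCA (6.57% of windows), the longer ETS motif CCGGAAGT (3.42%) and the CArG box of serum response factor (1.16%) were found in 0 of the members' windows. All searches covered both strands, and each full CRE also counts as 2 short ones. A match describes letters in a short window and is not evidence of binding.

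**Figure D1:**
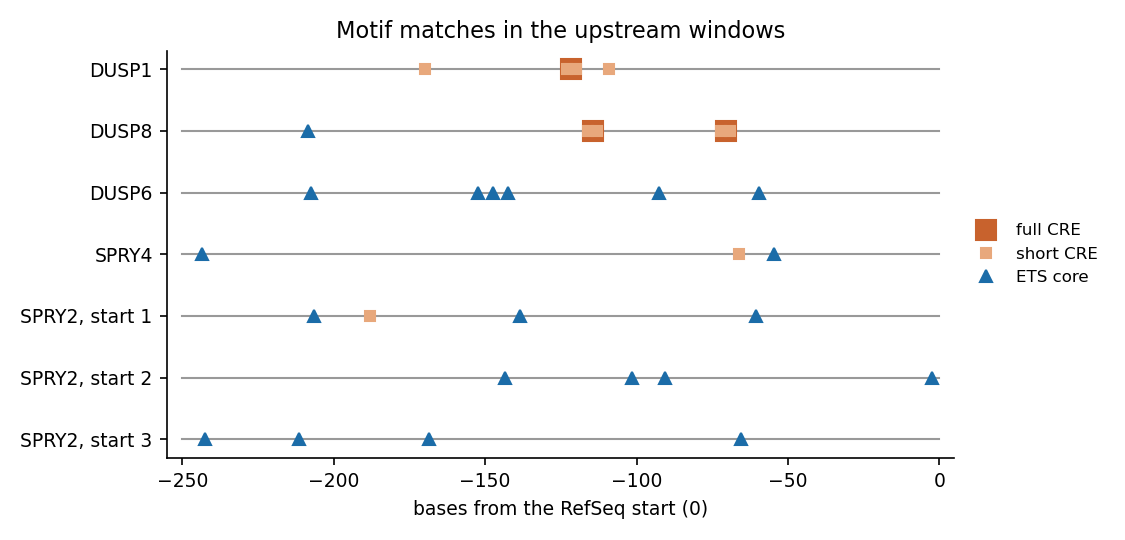
Positions of the full CRE (TGACGTCA), the short CRE (TGACG) and the ETS core (GGAA) on either strand in the 250 bases before the RefSeq start of each member, with 1 line per start and distance from the start in bases on the x axis. Among these 5 genes the full CRE appears in DUSP1 and DUSP8 alone, and DUSP6 carries 6 ETS cores; DUSP4 has no line.

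Over the whole series, array medians lay between 71.5 and 81.1 and the values carry no detection call or background level. Nothing in the labels says that replicates came from separate cultures, so the errors and p-values cover the spread of these 4 samples, which may be technical only. Of the T-cell markers, 8 of 13 listed genes were measured: LCK, a kinase of the T-cell receptor, had mean intensities of 1080 and 1107 in untreated and treated cells and the surface antigen CD5 1766 and 2043, while CD2 (79.2 and 73.0) and CD28 (75.1 and 86.0) were dim. The summed intensity of the 8 ranged from 7207 to 7233 in the untreated and from 6904 to 7517 in the treated arrays. Monocyte markers (6 of 8 measured) summed to 525 to 694 and 532 to 623, and B-cell markers (3 of 7) to 391 to 564 and 379 to 503, so neither sum separated the groups. Of the epithelial and fibroblast markers, 5 of 9 were measured, and they ran in both directions. The epithelial adhesion molecule EPCAM was bright, at 2062 and 2056, as was VIM (4820 and 4801), and KRT18 read 527 and 513. KRT8 (105 and 104) and DCN (21.1 and 34.5) were dim. In these marker lists 0 genes had a reading of 0.

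All 4 phosphatase genes were higher on both CSH71 arrays than on both untreated arrays, and DUSP4 had the widest difference. SPRY4 was slightly higher and SPRY2 overlapped between the groups. In all, both CSH71 arrays lay above both untreated arrays for 5 of the 6 genes, a pattern seen in 15.0% of all genes. Nothing is read from that count, because this contrast chose the genes. By the limma fit over all genes, DUSP4 was the 1 member with an adjusted p under 0.05, as were 0.0403% of genes in this direction, and nothing is read from that either. DUSP6 passed as well with 64 added before the log, after median centring and with a prior that follows intensity. From the DUSP6 passes nothing is read, for the same reason. The DUSP4 pass ended when either untreated array was left out, where the difference was 2.12 without untreated replicate 1 and 2.24 without untreated replicate 2.

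**Figure D2:**
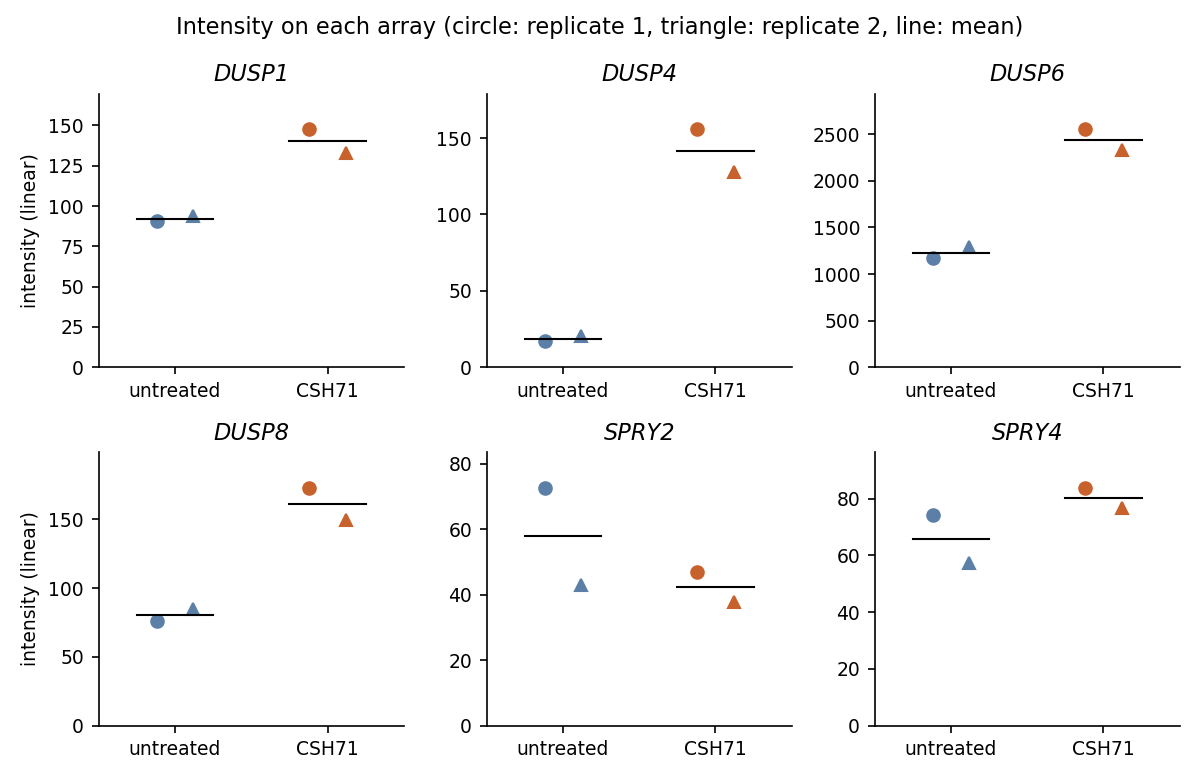
Linear intensity (y axis, from 0, own scale per panel) of each gene on the 2 untreated and 2 CSH71 arrays, with circles for replicate 1, triangles for replicate 2 and a line at the group mean. The groups are apart in the 4 DUSP panels, nearly touch in SPRY4 and overlap in SPRY2.

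DUSP4, a nuclear phosphatase that acts on ERK and JNK, read 17.2 and 20.3 on the untreated arrays and 156 and 128 on the CSH71 arrays. The group means were 18.7 ± 2.15 and 142 ± 19.8 (SD, n = 2 each), a 7.57-fold ratio of means. Both treated arrays stood far above both untreated ones, and the closest treated and untreated arrays were 1.99 apart on the log2(intensity + 16) scale, against 0.26 between the treated replicates. The fitted log2 difference was 2.18 ± 0.18 (SE), and 3 genes of the 14884 had a larger positive one. The untreated readings were among the dimmest on the array: 5.07% of genes read lower there, and the lower quartile of all probe sets lay between 30.9 and 37.5. The size of the difference therefore depends on how low readings are handled, with 2.85 when 1 was added before the log and 1.31 when 64 was added.

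DUSP1, the nuclear phosphatase of the immediate early response, read 90.7 and 93.7 on the untreated arrays and 148 and 133 on the CSH71 arrays. The groups were apart, with means of 92.2 ± 2.09 and 140 ± 10.5 and a 1.52-fold ratio. Its log2 difference of 0.53 ± 0.17 was 3.85 times the larger gap between replicates, and 374 genes had a larger positive difference. The log2 difference of DUSP4 exceeded that of DUSP1 by 1.65, but the size of this gap rests on the constant added to the dim DUSP4 readings: it was 2.25 with 1 added and 0.93 with 64.

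DUSP6, the cytoplasmic phosphatase that acts on ERK, has a bright probe set, above those of 91.0% of genes in untreated cells. It read 1172 and 1286 on the untreated arrays and 2556 and 2333 on the CSH71 arrays, with no overlap. The means were 1229 ± 80.2 and 2444 ± 157, a 1.99-fold ratio, and the log2 difference was 0.98 ± 0.17, or 7.47 times the larger replicate gap. Over the 8 other ways of processing that can move this value it stayed between 0.92 and 1.05. Both ends came from leaving out 1 untreated array, which cannot move a value by more than 1 SD of the replicates. The range is therefore no sign of stability. A larger positive difference was measured for 32 genes.

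DUSP8, the phosphatase directed at JNK and p38, read 75.9 and 84.7 on the untreated arrays and 173 and 149 on the CSH71 arrays. The groups did not overlap, with means of 80.3 ± 6.23 and 161 ± 16.7, a 2.01-fold ratio, and a log2 difference of 0.88 ± 0.18. Its ratio of means was close to that of DUSP6, and the log2 differences of these genes were 0.10 apart, less than the SE of either, and 0.31 apart with 64 added before the log. RefSeq names 3 pseudogenes after DUSP8, and how much of its signal they share was not tested.

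SPRY4, an inhibitor of RAS to ERK signalling, read 74.1 and 57.2 on the untreated arrays and 83.9 and 76.8 on the CSH71 arrays. The groups were apart by 0.04 on the log2 scale between their nearest arrays, less than the 0.30 between the untreated replicates. The log2 difference was 0.25 ± 0.19, and without untreated replicate 2 it was 0.10 and without untreated replicate 1 it was 0.40. SPRY2, a related inhibitor, read 72.7 and 43.0 on the untreated arrays and 46.9 and 37.7 on the CSH71 arrays, so the groups overlapped. Its log2 difference was -0.32 ± 0.24, which became -0.02 without untreated replicate 1 and -0.61 without untreated replicate 2. The size of the SPRY2 value thus depends on which untreated array is used, and for both Sprouty genes the difference was smaller than the gap between the untreated replicates.

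Side by side, the nuclear, cytoplasmic and stress-kinase directed members all read higher with CSH71, at 2.18 and 0.53, 0.98, and 0.88 on the log2 scale, while the Sprouty genes stood at 0.25 and -0.32. The median over the 6 was 0.70, against -0.01 over all genes. The 6 were chosen with this contrast known, so nothing is read from that gap. For the same reason nothing is read from the members' errors, intervals or ratios to replicate gaps. Within the treated group, replicate 1 read higher than replicate 2 for all 6 members, where 52.9% of all genes did so. Within the untreated group, replicate 1 was the higher for the 2 Sprouty genes and the lower for the 4 phosphatases, and 42.6% of all genes were higher in replicate 1.

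The close relatives of the members were tested in the limma fit over all genes. Their lists, too, were chosen with earlier results of these data known. None of the 7 measured relatives passed at an adjusted p under 0.05 (adjusted p from 0.927 to 0.999), and 2 of them, DUSP7 and DUSP10, had an unadjusted limma p under 0.05, as did 5.11% of all genes. The values of the 7 ran in both directions. SPRY1, SPRED1, SPRED2 and SPRED3 were not analysed here.

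Of the other nuclear phosphatases, DUSP2, a phosphatase of activated lymphocytes, read 402 and 439 on the untreated arrays and 546 and 522 on the CSH71 arrays, a log2 difference of 0.34 ± 0.17. DUSP5, which acts on ERK, stood at -0.04 ± 0.22 with overlapping groups, and its dimmer second probe set gave 0.89 (21.1 untreated and 53.4 treated), so the probe sets of DUSP5 disagree. Without single arrays the value of the brighter probe set ran from -0.26 to 0.18, so its sign depends on the arrays used. RefSeq also names 2 pseudogenes after DUSP5.

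Of the cytoplasmic relatives of DUSP6, DUSP7 had the clearer negative value. DUSP7 read 472 and 522 on the untreated arrays and 365 and 297 on the CSH71 arrays, a log2 difference of -0.57 ± 0.19. It did not pass (limma adjusted p = 0.927), and both treated arrays lay below both untreated ones, as for 16.6% of all genes. DUSP9 stood at -0.17 ± 0.19, and its groups overlapped. Its value was 0.02 without untreated replicate 1 and -0.35 without untreated replicate 2, so 1 array turns its sign. Both encode phosphatases that, like DUSP6, prefer ERK.

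Both stress-kinase relatives of DUSP8 had positive values. DUSP10, which acts on JNK and p38, read 1306 and 1303 on the untreated arrays and 1832 and 1667 on the CSH71 arrays, a log2 difference of 0.42 ± 0.17 (limma adjusted p = 0.960). DUSP16, a JNK phosphatase, read 44.3 and 89.2 untreated and 146 and 89.2 treated, a log2 difference of 0.71 ± 0.32. Its replicates were 0.80 and 0.63 apart, so the groups met at their edges. Without single arrays its value ran from 0.31 (untreated replicate 1 left out) to 1.11 (untreated replicate 2 left out). SPRY3, the remaining Sprouty gene, was at 0.10 ± 0.21 and its other probe set at -0.04. Without single arrays it ran from -0.11 to 0.30.

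**Figure D3:**
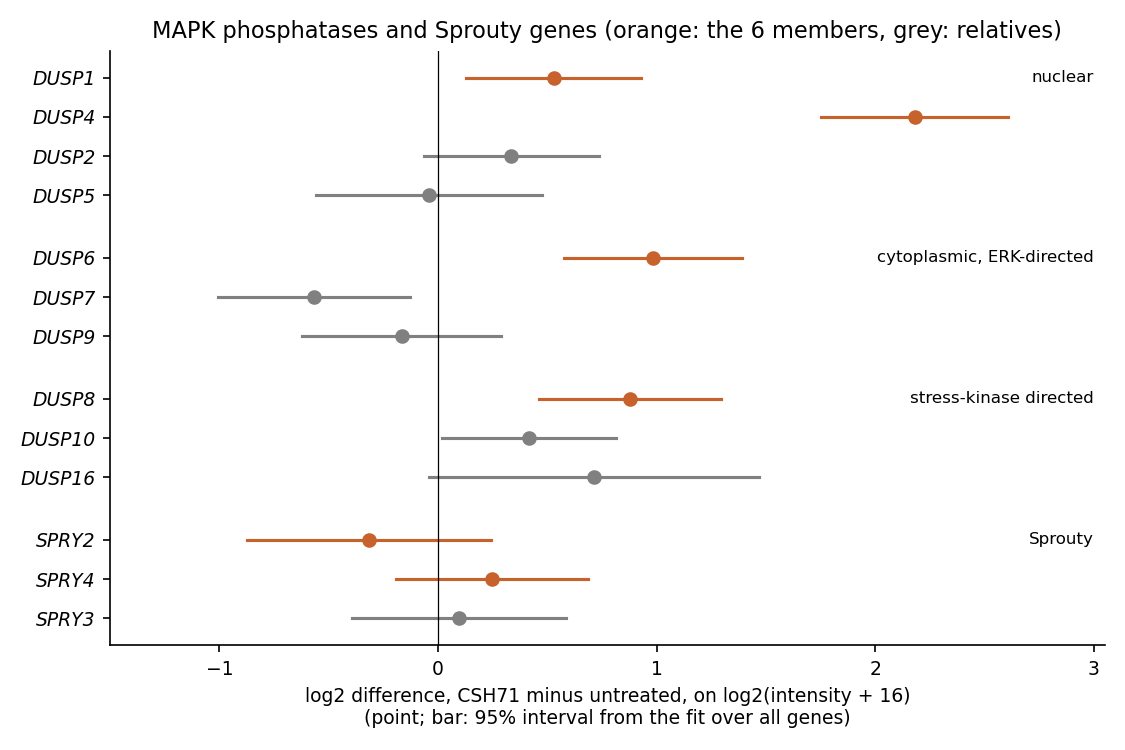
Log2 difference between CSH71 and untreated cells (x axis, on log2(intensity + 16)) of the 6 members in orange and 7 relatives in grey, with 95% intervals from the fit over all genes. The 4 DUSP members lie to the right of 0, while DUSP7 lies to the left at -0.57 and the Sprouty intervals include 0. Nothing is read from the members' intervals, because this contrast chose the members.

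The wider pathway was described through lists of related genes, chosen with earlier results of these data known and counted without the 6 members. Among the 73 related genes measured, 1 passed the limma threshold, JUN, as did 7 of all 14884 genes. An unadjusted limma p under 0.05 was found for 5 of the 73, and for 5.11% of all genes. The share of 5.11% also belongs beside the counts of single lists below, and nothing is read from these counts. The median log2 difference of the 73 was -0.01, against -0.01 over all genes, with 34 positive and 39 negative values. JUN, an AP-1 factor phosphorylated by JNK, read 88.7 and 127 on the untreated arrays and 857 and 800 on the CSH71 arrays, and rose by 2.79 ± 0.21 (limma adjusted p = 0.0224). Leaving out either untreated array ended the call, with a difference of 2.57 without untreated replicate 1 and 3.01 without untreated replicate 2.

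Among genes known as transcriptional output of ERK, 13 were measured besides the members, and 0 passed in limma (1 at an unadjusted limma p under 0.05), 6 were positive and 7 negative, with a median of -0.01. EGR1, an immediate early factor, read 87.8 and 90.0 untreated and 300.5 and 303 treated, a log2 difference of 1.60 ± 0.16 that lay just outside the threshold (limma adjusted p = 0.0516), while its second probe set gave 0.07. The pseudokinase gene TRIB2 was at -0.37 ± 0.19, with -0.31 for its dimmer second probe set, and the chromatin protein gene HMGA2 at -0.38 ± 0.27. The HMGA2 value rests on 1 array: it was 0.0014 without CSH71 replicate 1 and -0.77 without CSH71 replicate 2.

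For the cascades that these phosphatases and Sprouty proteins restrain, list medians were near 0. In the RAS to ERK cascade 14 of 23 listed genes were measured and 0 passed in limma (0 at an unadjusted p under 0.05), with a median of -0.01 and a range from -0.28 to 0.33. Its leading values belonged to the RAS activators SOS2 (0.33 ± 0.18), RASGRP1 (-0.28 ± 0.18) and SOS1 (-0.24 ± 0.16). In the JNK cascade 12 of 15 were measured and JUN alone passed; the kinases MAP3K7 and MAP3K5 were at 0.29 ± 0.18 and -0.28 ± 0.19. In the p38 cascade 12 of 16 were measured, 0 passed (1 at an unadjusted limma p under 0.05) and the median was -0.06. The transcription factor MEF2D was at 0.53 ± 0.17 (limma adjusted p = 0.927), the kinase MAPKAPK2 at 0.20 ± 0.16 and the adaptor TAB1 at -0.15 ± 0.16. A dimmer second probe set of TAB1 gave -0.38.

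Outside the MAP kinase phosphatase class, 16 genes of the dual-specificity phosphatase family were listed, which are not all such genes. All 16 listed genes were measured, and 0 passed in limma (0 at an unadjusted p under 0.05). They split evenly, with 8 positive and 8 negative values, a median of 0.00 and a range from -0.32 to 0.32. The outermost by p were DUSP26 (-0.32 ± 0.19), DUSP12 (0.28 ± 0.18) and DUSP18 (-0.29 ± 0.20). The 9 listed phosphatases of other families that act on MAP kinases were not analysed here.

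**Figure D4:**
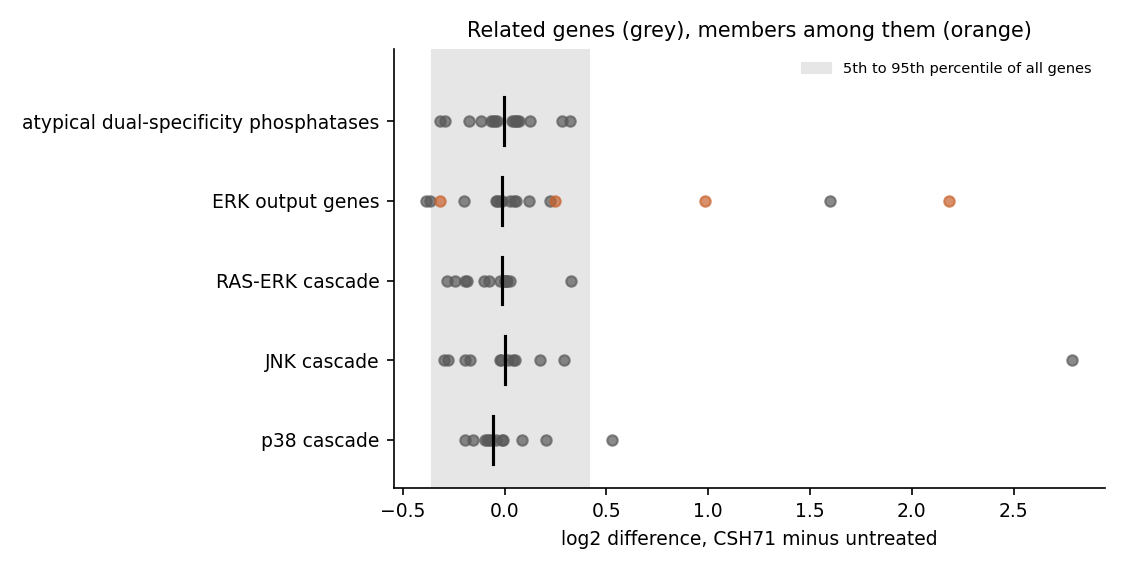
Log2 difference between CSH71 and untreated cells (x axis) for each measured gene of 5 related lists, with the list median without members as a black line, members in orange and the 5th to 95th percentile of all genes (-0.36 to 0.42) shaded. Outside the shading lie JUN, EGR1, MEF2D, DUSP4 and DUSP6 on the right and TRIB2 and HMGA2 on the left, and the list medians are near 0.

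Genes with a pattern over the 4 arrays most like each member were taken as those with the smallest root mean square distance between centred log2 values, among genes at least as bright as the median gene in the mean over the 4 arrays. For DUSP4 these were FOSL2 and CD69, at distances of 0.099 and 0.14. For DUSP6 they were SYTL3 and RASSF8 (0.035 and 0.046), for DUSP8 PLPP1 and KLF6 (0.039 and 0.042), and for DUSP1 SMAD7 and GLIPR1 (0.016 and 0.025). For SPRY4 they were MIR1976 and ZNF524 (0.030 and 0.032), and for SPRY2 MIR1914 and SALL2 (0.042 and 0.048). FOSL2 (66.4 untreated, 316 treated) and RASSF8 (94.0 and 204) were dimmer than the median gene in untreated cells, where that gene read 140.06, so they came into the choice through their treated readings. SALL2, at 167 untreated and 132 treated, was dimmer in treated cells than the median gene of either CSH71 array (135.38 and 138.845). It thus came into the choice through its untreated readings. With 4 arrays such likeness describes these samples alone.

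**Figure D5:**
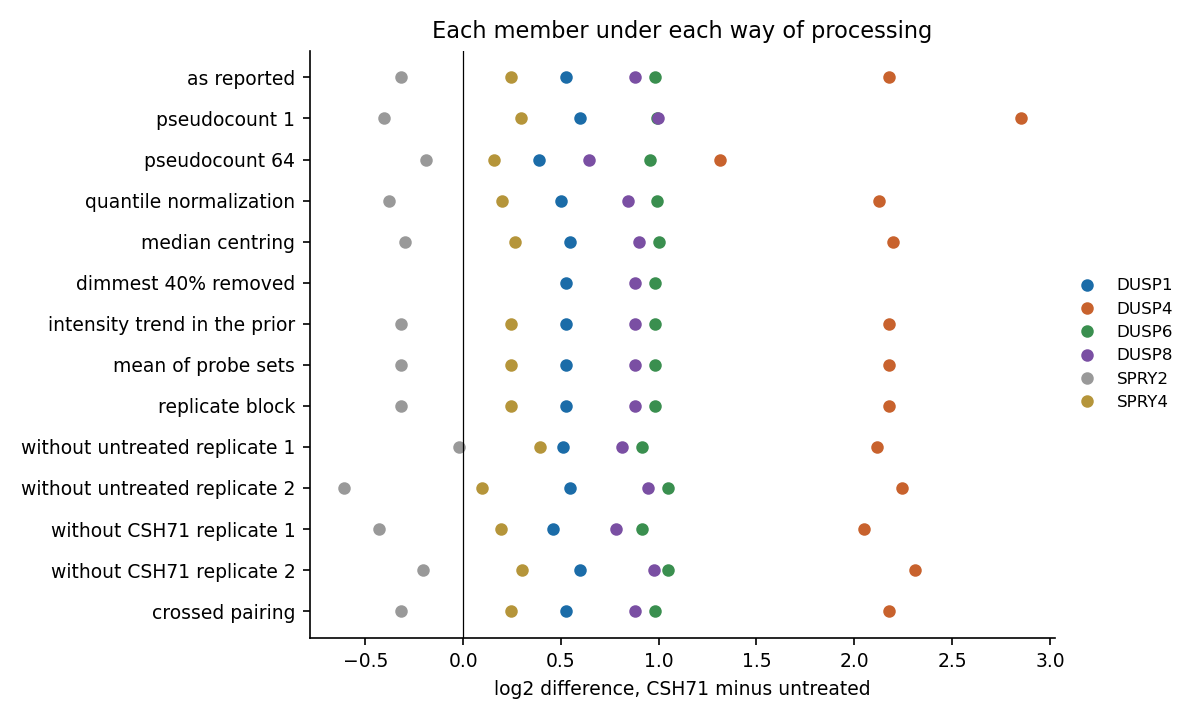
Log2 difference between CSH71 and untreated cells (x axis) of each member as reported and under 13 other ways of processing (y axis), of which 5 cannot move a value: the intensity trend, averaged probe sets, both pairings and the filter on dim genes, which removes DUSP4, SPRY2 and SPRY4. DUSP6 stays between 0.92 and 1.05, which is no sign of stability. DUSP4 runs from 1.31 to 2.85 with the constant added before the log, and SPRY2 approaches 0 without untreated replicate 1.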

How the data were processed

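RNA of Hut78 cells was measured on 4 arrays, 2 per group, grouped by the sample titles. The authors deposited 1 linear intensity per probe set; per the submitters' processing notes the software was Affymetrix Expression Console. Not given in the sources used here: its version, background correction and normalization. Of 53617 probe sets, 16098 had 1 gene symbol, 0 several and 37519 none in the platform annotation; all matched RefSeq (GRCh38.p14, used for names and upstream sequence) by entrez identifier. Where a gene had more than 1 probe set (779 genes), the brightest by mean log2 value was kept, which left 14884 genes. Values were taken as log2(intensity + 16), which understates changes of dim genes, and compared with limma 3.58.1 (R 4.3.3) without further normalization, with Benjamini-Hochberg adjustment over all genes and a threshold of 0.05. The number of arrays limits the precision.

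The members and the gene lists were chosen with earlier results of these data known. The naming rule took the members, all measured relatives, and from each other list the called genes or the 3 with the smallest p, plus 2 nearest patterns per member. This comparison was simulated in 10 runs over 14884 genes with 200 changed. There limma called 1.1% of the 2-fold changes and 52.6% of the 4-fold changes, with 0.5 false calls per run. The simulated noise used the replicate SDs of the genes shuffled among genes. These rates therefore do not apply to a gene of a given brightness. Each SD was itself estimated from 2 arrays per group but used as the true one. The simulated SDs thus spread more widely than true ones would, which also limits these rates. The alternatives were other added constants (1 and 64), quantile normalization, median centring, removal of the dimmest 40% of genes, a prior that follows intensity, averaged probe sets, the replicate number as a block, and each array left out in turn. A crossed pairing was added after the data were seen. Figures were drawn with matplotlib 3.10.9.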

Additional observations from a re-analysis of the deposited data

How the results depend on the processing

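Of the 13 alternatives, 8 can move a member's log2 difference. Of the 48 values these gave for the 6 members, 44 moved by less than 1 SD of the replicates, 4 moved further and 0 changed sign. Those 4 came from the added constant (DUSP1 0.39 and DUSP8 0.64 with 64, DUSP4 1.31 with 64 and 2.85 with 1). Leaving out 1 array cannot move a value by more than this SD, and median centring shifts every gene alike. The 44 are therefore no sign of stability. The members' median of 0.70 became 0.51 with a constant of 64 and 0.88 without the dimmest 40% of genes, where DUSP1, DUSP6 and DUSP8 alone remained. DUSP1 and DUSP8 passed that filter through their treated readings, since 38.5% and 34.5% of genes were dimmer in untreated cells, so the 0.88 is no sign of stability. The number of genes called by limma, 7 as reported, was 0 with a constant of 1 (768 at an unadjusted p under 0.05), 0 after quantile normalization (927), 33 with a constant of 64, 27 after median centring, 12 without the dimmest genes and 143 with an intensity trend in the prior. With the replicate block it was 28 and with the crossed pairing 0 (1291 at an unadjusted p under 0.05). The deviations of same-numbered arrays correlated at -0.29 over genes, so the numbers are not shown to pair the arrays. With each array left out in turn the count ran from 0 to 29: 0 without untreated replicate 1 (794 unadjusted), 0 without untreated replicate 2 (609 unadjusted), 29 without CSH71 replicate 1 and 20 without CSH71 replicate 2.

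Among the 73 related genes, the 1 call (JUN) became 0 with a constant of 1, after quantile normalization or with the crossed pairing (4, 6 and 7 at an unadjusted limma p under 0.05), and DUSP4 also fell short of the threshold in each of these. DUSP6 passed with a constant of 64, after median centring and with an intensity trend in the prior. Nothing is read from the calls of members, because this contrast chose them. The count of related genes called became 2, JUN and EGR1, with a constant of 64, median centring, removal of dim genes or the replicate block. That count was 4 with an intensity trend in the prior, which added DUSP10 and MEF2D. With each array left out in turn it ran from 0 to 2, with 0 without untreated replicate 1 or untreated replicate 2 (4 at an unadjusted limma p under 0.05 in each) and JUN and EGR1 without either CSH71 array. Low readings without a background level limit the size given for DUSP4 most.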
